A study of Rattus norvegicus with 9 samples.

Results

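Complement and coagulation factors are plasma proteins that the liver makes and secretes. Of 44 such genes listed by symbol, 41 had a probe set of their own on the rat whole-transcript array, out of 18166 genes that did, and all 41 were among the 15793 genes that passed the filter on dim signals and were tested. The rule that chose them used gene symbols and no measured value, but the list was chosen with earlier results of these data known. None of the 41 had more than 1 probe set. C2 and Cfi were not matched by symbol, and the probe set of C4b also carries the symbol C4a, so these 3 genes were not analysed here.

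Complement is a chain of zymogens and binding proteins. The classical start (C1r, C1s), the lectin start (mannose-binding lectins and their proteases) and the alternative loop (factors B and D, properdin) meet at C3, and the terminal components then assemble the membrane attack complex. Coagulation is a parallel chain of proteases that ends in the cutting of fibrinogen to fibrin, which plasmin later dissolves. Hepatocytes are the main source of most of these proteins, several of which rise in the blood during the acute phase response, while a few are made mostly elsewhere: factor D in fat, properdin in leukocytes, factor VIII in endothelium.

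The 9 arrays hold RNA from laser-microdissected liver of female F344 rats, 3 arrays in each of 3 groups. By the protocol given for every sample, retrorsine, which blocks division of the resident hepatocytes, was injected 2 times (30 mg/kg each, with 2 weeks between), and 4 weeks later part of the liver was removed. The first group (called SHPCs here) holds SHPC clusters (foci of hepatocytic progenitor cells) of livers without a cell transplant, and the second (called transplanted SHPCs) holds SHPC clusters of DPPIV-negative recipients that were given sorted Thy1+ cells of DPPIV-positive donors through the spleen. The third group holds hepatocytes lying beside SHPCs in livers without a transplant; its cell type label and titles say so, while its description label speaks of SHPCs with a transplant, and the cell type label was followed. All groups therefore share retrorsine and hepatectomy, and no untreated liver is among them. The age of the rats, the interval before the tissue was taken, the number of rats and which captured regions came from the same rat are not stated in the labels. Where regions of the same group share a rat, p-values over arrays are too small. Where regions of different groups share a rat, p-values that ignore the pairing can be too large. All p-values here measure only the spread between these arrays, which may be technical.

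Levels are given as log2 intensity on the array scale and differences as log2 differences of group means with the standard error (SE) of limma, a linear model fitted across all genes with moderated variances. A gene was called at an adjusted p (Benjamini-Hochberg over the 15793 genes) under 0.05. A member is described as apart when all 3 arrays of a group lay above, or all 3 below, the 3 arrays of the other group. The 3 comparisons share arrays, so a value low in the SHPC group, for example, enters 2 of them. In captured tissue, fewer cells of a type and less RNA per cell cannot be told apart.

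A pair of arrays, the second of the SHPC group and the second of the hepatocytes, stood apart. Their intensities were spread less (SD of log2 intensity 1.94 and 1.98, against 2.09 to 2.13 on the other 7), so bright genes read lower on them. Median intensities were 24.1 and 23.0 on those arrays and 19.6 to 20.6 on the rest. The transplanted group holds no such array, and 14 of the members lay above the 99th percentile of signal on all 9 arrays, so comparisons with the transplanted group are given with and without that pair. Hepatocyte markers (6 of 8 on the array) were above the 25th percentile on all 9 arrays, and their summed linear intensity ran from 33100 to 39100 in SHPCs, 38300 to 39500 in transplanted SHPCs and 33800 to 37100 in hepatocytes.

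The next comparison is of SHPCs of livers with and without transplanted Thy1+ cells. The donor cells, the injection through the spleen and any difference of the recipients cannot be told apart in it. No member passed the threshold of limma (0 of 41, against 0.00633% of all genes), while 7 members were higher and 0 lower at an unadjusted p under 0.05 (5.07% and 2.29% of all genes). In direction, 39 of 41 members were higher in the transplanted group, with a median difference of 0.25. Of the members, 18 were apart above, or 43.9%, and 0 apart below; over all genes these shares were 10.6% and 5.23%. Much of this height is shared by other bright genes: among the 1233 tested genes with a mean log2 intensity above 8, where 33 members lie, 83.5% were higher, the median was 0.24 and 29.8% were apart above. Without the pair of arrays that stood apart the members' median was 0.14, and 37 of 41 were higher. In that setting 18 members (43.9%) were apart above and 1 below, beside 15.2% and 11.5% of all genes. After median centring 23 members (56.1%) were apart above and 0 below, beside 16.9% and 2.9% of all genes. After cyclic loess, which evens out intensity-dependent differences between arrays, 23 of 41 members were higher, the median was 0.01, and 9 members (22%) were apart above, beside 12.7% of all genes and 21.2% of bright genes treated in the same way. Those 9 were C6, C7, C1s, Masp2, Mbl1, C4bpb, F7, Tfpi and Hrg. Members apart below after cyclic loess numbered 1 (2.44%), beside 7.17% of all genes and 16.2% of bright genes. Of the 6 hepatocyte markers, 5 were higher against SHPCs as deposited (median 0.08) and 0 after cyclic loess (median -0.15). Between the deposited values and cyclic loess 16 of 41 members turned in direction against SHPCs, and without the narrow pair 25 of 41 either turned or shrank by over 1.5 times.

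**Figure D1:**
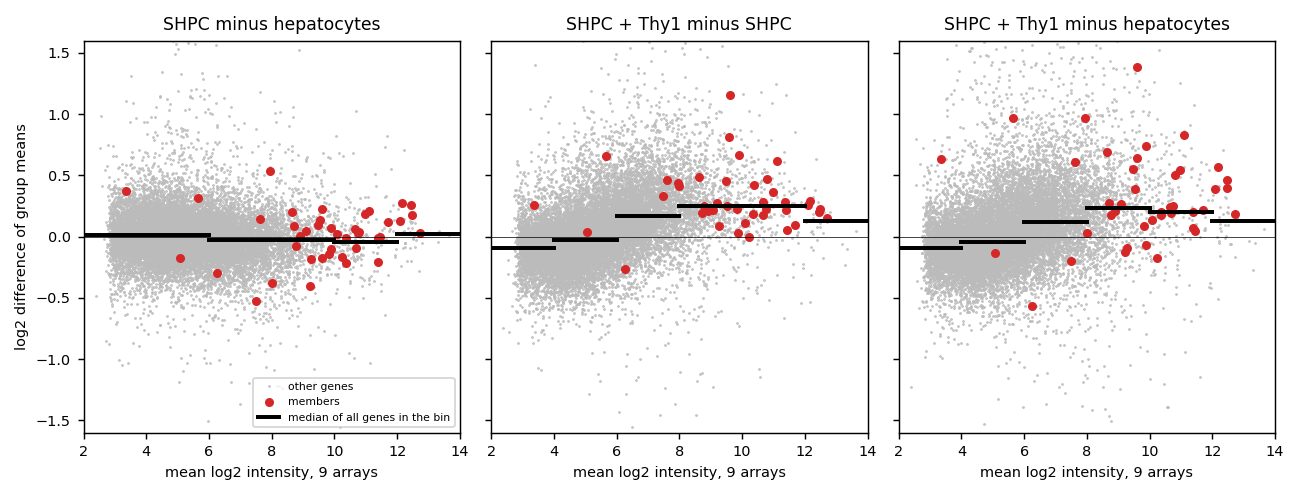
Log2 difference of group means (vertical axis) against mean log2 intensity over the 9 arrays (horizontal axis) for the 41 members (red) and all other tested genes (grey), with the median of all genes in bins of intensity as black bars. In both comparisons of the transplanted group the bars climb from -0.09 in the dimmest bin to 0.25 (against SHPCs) and 0.23 (against hepatocytes) between 8 and 10, and most members sit near the bars, with C6 far above; genes beyond 1.6 in either direction (16, 29 and 89 in the 3 panels, no member) are not drawn.

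The comparison of SHPCs of transplanted livers with hepatocytes beside SHPCs called 1 member, C6, which was higher (of all genes, 1.18% were called, and 0.861% were called higher). At an unadjusted p under 0.05, 13 members were higher and 1 was lower, beside 7.07% and 3.32% of all genes. Of the 41 members, 34 were higher, with a median of 0.24 (0.20 without the pair of arrays), and 22 were apart above and 1 below, against 12.6% and 6.64% of all genes. Bright genes again stood between: 36.1% of them were apart above and their median was 0.22. Without the pair of arrays 32 members were higher, and 22 were apart above and 3 below, beside 16% and 12.6% of all genes. After median centring 24 members were apart above and 1 below, beside 17.7% and 3.64% of all genes. After cyclic loess, 25 members were higher, with a median of 0.04. Then 12 members were apart above (29.3%, beside 15% of all genes and 25.1% of bright genes) and 4 below (9.76%, beside 9.03% and 22.1%).

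SHPCs and neighbouring hepatocytes of livers without a transplant showed few differences in these genes. No member was called (0 of 41, against 0.0633% of all genes), with 2 higher and 2 lower at an unadjusted p under 0.05 (2.31% and 1.81% of all genes). Of the members 24 were higher, the median difference was 0.03, and 2 were apart above and 4 apart below (2.72% and 2.49% of all genes). Both groups hold an array of narrow range. With the array number as a block, 35 genes rather than 10 were called, and members called stayed at 0. The members at an unadjusted p under 0.05 were Klkb1 and C7 on the higher side and Cfp and Mbl2 on the lower side, each with a limma adjusted p of 1.

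**Figure D2:**
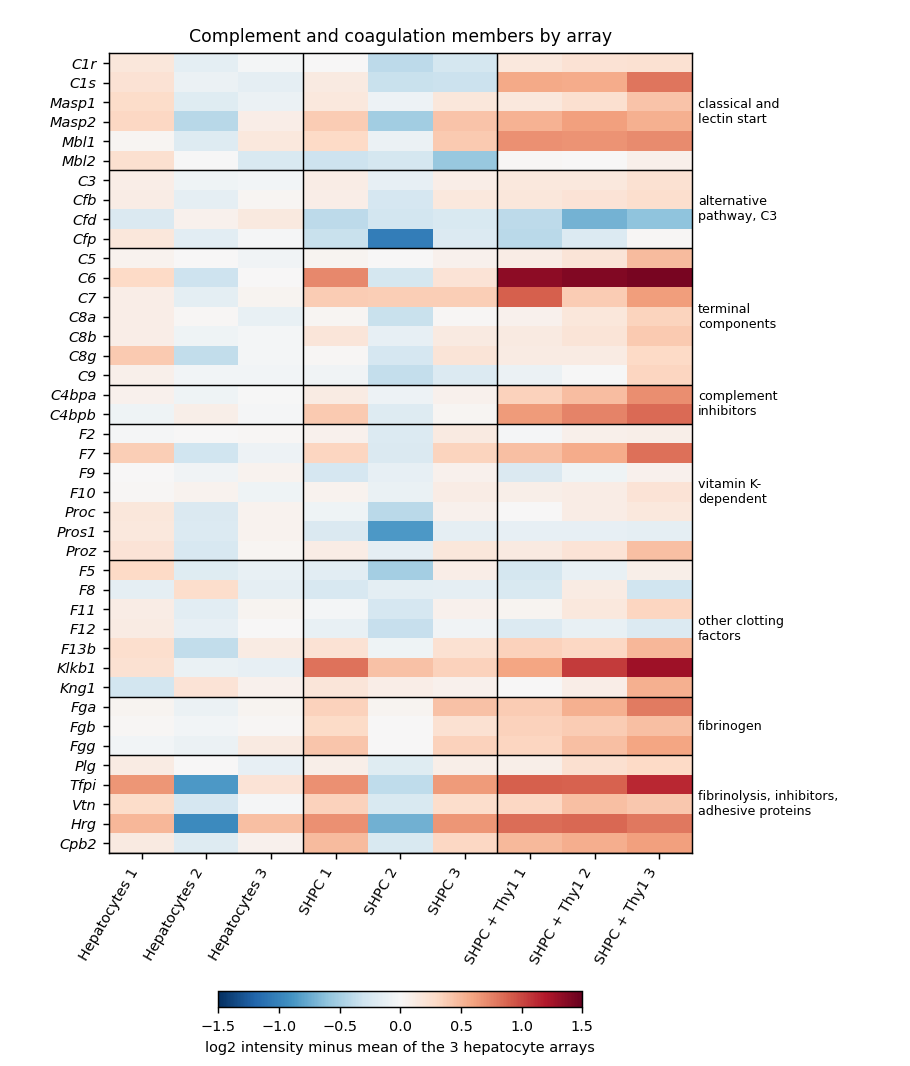
Heat map of log2 intensity minus the mean of the 3 hepatocyte arrays, for the 41 members (rows, by role) on each of the 9 arrays (columns). C6 is darkest on the 3 arrays of transplanted livers, and the second arrays of the hepatocyte and SHPC groups are blue for most members (8 and 6 of 41 above the hepatocyte mean).

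Among the terminal components, C6 carried the largest difference of the whole list. C6 joins C5b to begin the membrane attack complex. Its log2 intensity was 9.79, 8.81 and 9.27 in SHPCs, 10.41, 10.46 and 10.49 in transplanted SHPCs, and 9.37, 8.76 and 9.08 in hepatocytes. Every array of transplanted livers lay above all 6 others, and the SD over 3 arrays was 0.04 there, 0.49 in SHPCs and 0.30 in hepatocytes. C6 was 2.61-fold higher in transplanted SHPCs than in hepatocytes (1.38 ± 0.24 SE, limma adjusted p = 0.0264) and 2.23-fold higher than in SHPCs without a transplant (1.16 ± 0.24 SE, limma adjusted p = 0.198). SHPCs without a transplant and hepatocytes differed by 0.22 ± 0.24 SE (limma adjusted p = 1) and overlapped.

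The C6 call depended on which arrays were used and on the processing. Against hepatocytes it was lost when any of the 3 transplanted arrays (limma adjusted p 0.129, 0.121 and 0.14 without arrays 1, 2 and 3 in turn) or any of the 3 hepatocyte arrays (0.0573, 0.101 and 0.106) was left out, and after median centring (0.0946), with the difference between 1.23 and 1.53 throughout. The call held when SHPC array 1, 2 or 3 was left out (limma adjusted p 0.0142, 0.00517 and 0.0461). It also held without both arrays of narrow range (1.23, limma adjusted p = 0.00884) and after cyclic loess (1.19, limma adjusted p = 0.0022). Against SHPCs the difference was 0.91 after cyclic loess, where it passed (limma adjusted p = 0.0341), and 0.92 without both narrow arrays, where it did not (0.116).

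The promoter of C6 is shown with those of Klkb1, C4bpb and Mbl1, because these are the 4 members with the smallest p-values against hepatocytes. Each runs from 250 bases before to 50 after the RefSeq start on GRCr8, in the gene's direction, and the capitals mark matches to C/EBP letters (C6 and Klkb1) or STAT letters (C4bpb); Mbl1 has none of the 4 motifs searched. C6 lies at chr2:55573383-55573682 (plus strand), Klkb1 at chr16:53690976-53691275 (plus), C4bpb at chr13:44683732-44684031 (minus) and Mbl1 at chr16:17062982-17063281 (plus).
C6: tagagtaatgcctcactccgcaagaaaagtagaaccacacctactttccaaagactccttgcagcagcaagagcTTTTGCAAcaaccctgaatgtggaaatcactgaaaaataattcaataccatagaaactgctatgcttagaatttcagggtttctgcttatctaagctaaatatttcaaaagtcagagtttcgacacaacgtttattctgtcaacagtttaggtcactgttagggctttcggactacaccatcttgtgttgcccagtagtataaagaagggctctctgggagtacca
Klkb1: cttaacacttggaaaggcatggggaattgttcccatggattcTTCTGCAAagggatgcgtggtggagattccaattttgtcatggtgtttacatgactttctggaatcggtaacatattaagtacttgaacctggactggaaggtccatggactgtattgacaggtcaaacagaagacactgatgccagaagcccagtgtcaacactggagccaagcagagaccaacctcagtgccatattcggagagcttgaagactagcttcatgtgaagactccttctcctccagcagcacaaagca
C4bpb: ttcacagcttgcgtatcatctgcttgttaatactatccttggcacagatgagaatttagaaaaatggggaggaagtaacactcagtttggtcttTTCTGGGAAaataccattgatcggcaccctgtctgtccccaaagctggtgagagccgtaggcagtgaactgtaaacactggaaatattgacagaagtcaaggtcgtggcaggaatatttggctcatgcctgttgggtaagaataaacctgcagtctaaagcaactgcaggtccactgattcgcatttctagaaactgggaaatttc
Mbl1: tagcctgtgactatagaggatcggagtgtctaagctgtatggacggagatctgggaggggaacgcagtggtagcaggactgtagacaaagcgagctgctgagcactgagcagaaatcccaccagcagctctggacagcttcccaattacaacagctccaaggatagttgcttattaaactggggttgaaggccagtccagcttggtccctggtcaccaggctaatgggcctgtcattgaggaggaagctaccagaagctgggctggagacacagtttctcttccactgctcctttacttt

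The other terminal components differed less. C5, whose cleavage opens the terminal pathway, was 10.69, 10.65 and 10.71 in SHPCs, 10.76, 10.84 and 11.12 in transplanted SHPCs and 10.70, 10.65 and 10.60 in hepatocytes, so the transplanted arrays were apart above both, by 0.22 ± 0.13 SE and 0.25 ± 0.13 SE; neither difference passed (limma adjusted p = 0.705 and 0.563), and after cyclic loess they were -0.03 and 0.05. The 3 chains of C8 and the pore-forming C9 were higher by 0.18 to 0.28 in transplanted SHPCs than in SHPCs, with overlap for C8b, C8g and C9. All 7 terminal genes were higher in that comparison, with a median of 0.26, which became 0.03 with 4 of 7 higher after cyclic loess.

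C7, the next protein to join after C6, was the dimmest member. Its values were 3.40, 3.39 and 3.39 in SHPCs, 3.92, 3.40 and 3.65 in transplanted SHPCs and 3.12, 2.88 and 3.07 in hepatocytes, the hepatocyte array at 2.88 being below its own 25th percentile. Hepatocytes lay below both SHPC groups without overlap, by 0.37 ± 0.15 SE against SHPCs (limma adjusted p = 1) and 0.64 ± 0.15 SE against transplanted SHPCs (limma adjusted p = 0.0994; 0.74 and 0.0497 after cyclic loess). Against SHPCs the difference after cyclic loess was 0.36, with overlap.

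Of the classical pathway genes, C1s, the protease that cuts C4 and C2, ranked second after C6 against SHPCs. It read 9.57, 9.11 and 9.12 in SHPCs, 10.01, 10 and 10.24 in transplanted SHPCs and 9.66, 9.35 and 9.31 in hepatocytes, the transplanted arrays lying above all others. The differences were 0.82 ± 0.17 SE against SHPCs (1.76-fold, limma adjusted p = 0.198) and 0.64 ± 0.17 SE against hepatocytes (limma adjusted p = 0.145), and 0.57 and 0.45 after cyclic loess. C1r, which activates C1s, is its direct neighbour in the genome. Its values were 10.38, 9.98 and 10.11 in SHPCs, 10.53, 10.59 and 10.61 in transplanted SHPCs and 10.55, 10.23 and 10.35 in hepatocytes. The transplanted arrays were above all SHPC arrays, by 0.42 ± 0.15 SE (limma adjusted p = 0.552, and 0.17 after cyclic loess), and overlapped the hepatocytes.

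Mannose-binding lectins recognise sugars on microbes and start the lectin pathway, and rats carry a pair of genes for them. Mbl1 read 8.64, 8.26 and 8.74 in SHPCs, 9.03, 9.02 and 9.05 in transplanted SHPCs and 8.38, 8.15 and 8.51 in hepatocytes. The transplanted arrays were above all others and nearly equal to each other (SD 0.01, n = 3). Mbl1 was 0.69 ± 0.16 SE higher than in hepatocytes (limma adjusted p = 0.089) and 0.49 ± 0.16 SE higher than in SHPCs (limma adjusted p = 0.495). Against hepatocytes it passed without both narrow arrays (0.59, limma adjusted p = 0.0175) and not after cyclic loess (0.50, limma adjusted p = 0.0612), and against SHPCs it was at 0.25 after cyclic loess. Mbl2 followed another order: it read 7.80, 7.85 and 7.54 in SHPCs, 8.13, 8.11 and 8.19 in transplanted SHPCs and 8.35, 8.10 and 7.88 in hepatocytes. SHPCs without a transplant were low, by -0.38 ± 0.15 SE against hepatocytes (limma adjusted p = 1) and apart from both other groups, and transplanted SHPCs and hepatocytes overlapped, at 0.03 ± 0.15 SE from each other. After cyclic loess Mbl2 was at -0.34 in SHPCs against hepatocytes. Transplanted SHPCs were then at 0.20 against SHPCs and -0.14 against hepatocytes, and all groups overlapped. Of the proteases that the lectins carry, Masp2 was apart above SHPCs and hepatocytes by 0.46 ± 0.26 SE and 0.55 ± 0.26 SE (limma adjusted p = 0.705 and 0.517). The narrow SHPC array read 8.74 for Masp2 and the other SHPC arrays 9.64 and 9.68, and the differences were 0.15 and 0.34 without the narrow arrays and 0.21 and 0.36 after cyclic loess. Masp1 differed by 0.19 ± 0.16 SE from SHPCs, with overlap. All 6 genes of the classical and lectin start were higher in transplanted SHPCs than in SHPCs, with a median of 0.44 (0.34 without the narrow arrays, and 0.20 with 5 of 6 higher after cyclic loess).

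In the alternative pathway the differences were small or in the other direction. C3, the protein on which all activation routes converge, read 12.76, 12.52 and 12.75 in SHPCs, 12.80, 12.81 and 12.88 in transplanted SHPCs and 12.75, 12.58 and 12.61 in hepatocytes. The transplanted arrays were just above all others, by 0.16 ± 0.13 SE and 0.18 ± 0.13 SE (limma adjusted p = 0.734 and 0.672), and the sign turned after cyclic loess (-0.09 and -0.02). Factor B (Cfb), the protease subunit of the alternative convertase, differed by 0.21 ± 0.15 SE from both SHPCs and hepatocytes and by -0.03 and 0.02 after cyclic loess.

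Factor D (Cfd), which cuts factor B, and properdin (Cfp), which steadies the convertase, were below hepatocytes in both SHPC groups on average. Cfd read 6.16, 6.28 and 6.32 in SHPCs, 6.16, 5.85 and 5.95 in transplanted SHPCs and 6.34, 6.62 and 6.70 in hepatocytes. Hepatocytes were above both other groups without overlap, by a difference of -0.57 ± 0.15 SE for transplanted SHPCs (limma adjusted p = 0.131; -0.63 after cyclic loess) and -0.30 ± 0.15 SE for SHPCs (limma adjusted p = 1). After cyclic loess SHPCs were at -0.27 against hepatocytes, with overlap. Cfd was the member with the lowest difference against hepatocytes in the transplanted group and the only 1 apart below. The summed intensity of 4 adipocyte markers overlapped between the groups. It was 166 to 296 in SHPCs, 223 to 248 in transplanted SHPCs and 194 to 305 in hepatocytes. Cidec was the brightest of these markers, with group means of 7.43, 7.52 and 7.58 log2 in that order. Adipoq (3.66, 3.69 and 3.63) and Lep (3.38, 2.91 and 3.52) were dim. Only 3 of the 4 markers were above the 25th percentile on all 9 arrays. The sum therefore mostly follows Cidec, and the part of fat cells in the Cfd values was not tested. Cfp read 7.39, 6.69 and 7.52 in SHPCs, 7.32, 7.52 and 7.74 in transplanted SHPCs and 7.90, 7.57 and 7.71 in hepatocytes. SHPCs were apart below hepatocytes, by -0.53 ± 0.22 SE (limma adjusted p = 1), a value that was -0.35 without both narrow arrays. Transplanted SHPCs overlapped both other groups for Cfp, at 0.33 ± 0.22 SE from SHPCs (0.07 without the narrow arrays) and -0.20 ± 0.22 SE from hepatocytes (-0.35 and apart below after cyclic loess).

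C4b-binding protein, the plasma inhibitor that breaks down the C4b convertase, was represented by its alpha and beta chain genes. C4bpb read 10.02, 9.43 and 9.65 in SHPCs, 10.26, 10.37 and 10.47 in transplanted SHPCs and 9.56, 9.71 and 9.60 in hepatocytes. C4bpa read 10.74, 10.54 and 10.68, then 10.97, 11.08 and 11.32, and 10.69, 10.56 and 10.61 in the same order of groups. For both genes the transplanted arrays were above all 6 others, while SHPCs and hepatocytes overlapped. C4bpb was 0.67 ± 0.16 SE above SHPCs (1.59-fold, limma adjusted p = 0.301) and 0.74 ± 0.16 SE above hepatocytes (1.67-fold, limma adjusted p = 0.072). For C4bpa the differences were 0.47 ± 0.14 SE (limma adjusted p = 0.44) and 0.50 ± 0.14 SE (limma adjusted p = 0.153); after cyclic loess they were 0.22 and 0.30, and the arrays of C4bpa overlapped in both comparisons. Against hepatocytes, C4bpb passed without both narrow arrays (0.78, limma adjusted p = 0.0204) and not after cyclic loess (0.54, limma adjusted p = 0.188).

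**Figure D3:**
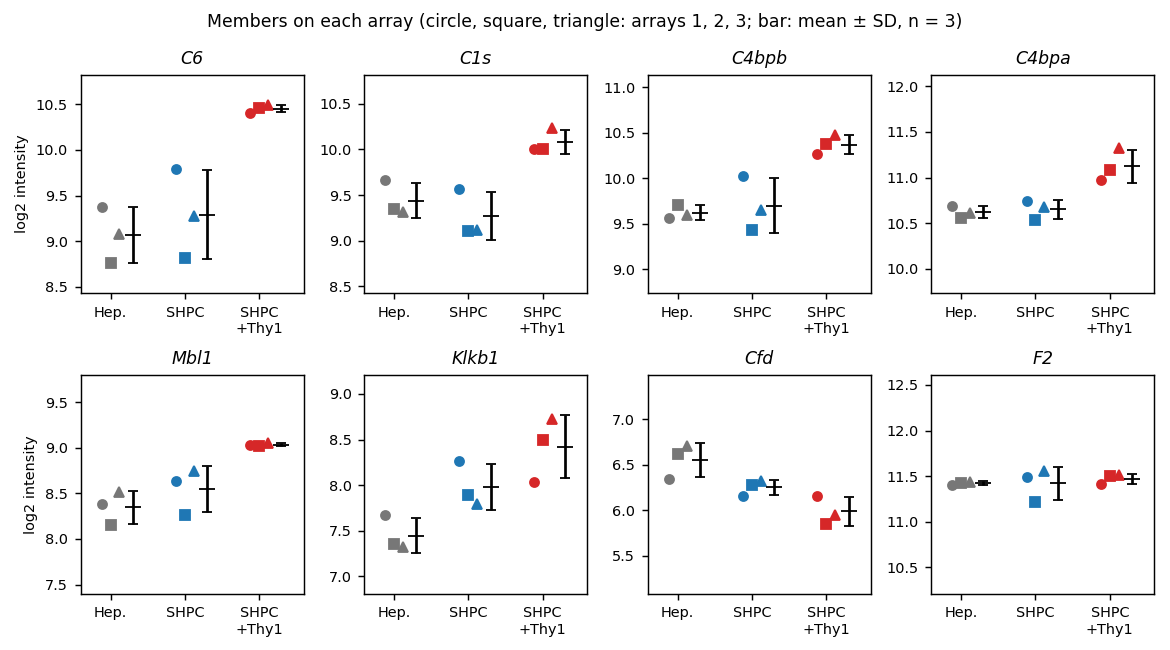
Log2 intensity of 8 members on each array (circle, square and triangle are arrays 1, 2 and 3; the bar is mean ± SD, n = 3), with panels of equal height in log2 units but different starting levels. C6, C1s, C4bpb, C4bpa and Mbl1 show the 3 arrays of transplanted livers above the 6 others, Cfd shows hepatocytes highest, and F2 (prothrombin) shows all 3 groups overlapping.

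Vitamin K-dependent factors carry glutamates that the liver carboxylates so that the proteins can bind calcium and membranes. Prothrombin (F2) read 11.49, 11.22 and 11.56 in SHPCs, 11.41, 11.50 and 11.51 in transplanted SHPCs and 11.40, 11.43 and 11.44 in hepatocytes, with overlap of all groups and differences of 0.05 ± 0.13 SE for transplanted SHPCs against either. Factors IX and X (F9, F10) and the anticoagulant zymogen protein C (Proc) differed from SHPCs by 0.03 ± 0.14 SE, 0.11 ± 0.12 SE and 0.23 ± 0.16 SE, all with overlap. Factor VII (F7), which starts clotting with tissue factor, was the only factor of this class apart above both SHPCs and hepatocytes. It read 7.68, 7.15 and 7.70 in SHPCs, 7.81, 7.92 and 8.19 in transplanted SHPCs and 7.73, 7.07 and 7.29 in hepatocytes. Its transplanted arrays were above all others, by 0.46 ± 0.21 SE and 0.61 ± 0.21 SE, without passing the threshold (limma adjusted p = 0.695 and 0.322), and by 0.26 and 0.45 after cyclic loess. F10, Proz and F7 are neighbours in the genome. Protein Z (Proz), a cofactor for the inhibition of factor X, differed from hepatocytes by 0.26 ± 0.16 SE, with overlap. F10 differed from hepatocytes by 0.14 ± 0.12 SE and was apart above them (-0.06 with overlap after cyclic loess). Protein S (Pros1), the cofactor of protein C, read 9.17, 8.53 and 9.26 in SHPCs, 9.27, 9.27 and 9.26 in transplanted SHPCs and 9.55, 9.18 and 9.44 in hepatocytes; SHPCs were at -0.40 ± 0.19 SE from hepatocytes with overlap (limma adjusted p = 1), at -0.18 without the narrow SHPC array, and at -0.35 and apart below after cyclic loess. The 7 genes had a median of 0.22 against SHPCs and 0.09 against hepatocytes, and -0.02 and -0.11 after cyclic loess.

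The vitamin K cycle list, whose genes are not members, holds the enzymes that recycle the vitamin and modify these factors. Of 6 listed, 5 were tested, and all 5 were higher in transplanted SHPCs than in SHPCs, with a median of 0.69 (0.37 without the narrow arrays and 0.48 after cyclic loess, with 4 of 5 higher in each, since Vkorc1l1 was then at -0.16 and -0.02); 0 passed limma's threshold and 2 had an unadjusted p under 0.05. The carboxylase Ggcx read 7.80, 6.85 and 7.80 in SHPCs, 8.19, 8.22 and 8.09 in transplanted SHPCs and 7.66, 6.97 and 7.54 in hepatocytes, apart above both. It differed by 0.69 ± 0.27 SE from SHPCs (limma adjusted p = 0.634; 0.37 without the narrow SHPC array, and 0.48 after cyclic loess) and 0.78 ± 0.27 SE from hepatocytes (limma adjusted p = 0.306; 0.62 and 0.0377 after cyclic loess). The quinone reductase Nqo1 differed from SHPCs by 1.09 ± 0.24 SE (limma adjusted p = 0.275). Gas6, a vitamin K-dependent ligand of receptor tyrosine kinases placed in the same list, was lower in SHPCs than in hepatocytes by a difference of -0.71 ± 0.15 SE, without overlap (limma adjusted p = 0.306).

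In the contact system and the other clotting factors, plasma prekallikrein (Klkb1) had the largest difference from hepatocytes. It is the zymogen that activates factor XII and releases bradykinin from kininogen. Klkb1 read 8.26, 7.89 and 7.79 in SHPCs, 8.04, 8.50 and 8.72 in transplanted SHPCs and 7.67, 7.35 and 7.32 in hepatocytes. Hepatocytes were below every array of both SHPC groups, and the SHPC groups overlapped each other. The difference from hepatocytes was 0.54 ± 0.20 SE in SHPCs (1.45-fold, limma adjusted p = 1) and 0.97 ± 0.20 SE in transplanted SHPCs (1.96-fold, limma adjusted p = 0.0607), with 0.53 and 0.92 without the narrow arrays. Its genomic neighbour F11, a related protease zymogen, differed from hepatocytes by -0.07 ± 0.14 SE and 0.17 ± 0.14 SE, with overlap. The partners of Klkb1 in the contact system, factor XII (F12) and kininogen (Kng1), were at -0.18 ± 0.13 SE and 0.21 ± 0.18 SE in transplanted SHPCs against hepatocytes, also with overlap. After cyclic loess, F12 was at -0.26 against SHPCs and -0.38 against hepatocytes, apart below both (limma adjusted p = 0.605 and 0.273).

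The cofactors F5 and F8 differed from SHPCs by 0.09 ± 0.19 SE and 0.04 ± 0.16 SE in the transplanted group, with overlap. F13b, the carrier subunit of the fibrin-crosslinking enzyme, was apart above SHPCs and hepatocytes by 0.25 ± 0.18 SE and 0.39 ± 0.18 SE (limma adjusted p = 0.72 and 0.491). The narrow hepatocyte array gave 8.99 for F13b and the other hepatocyte arrays 9.61 and 9.48, and without the narrow pair the differences were 0.16 and 0.20. After cyclic loess F13b was at 0.01 against SHPCs, with overlap, and at 0.19 against hepatocytes. The median of the 7 genes in this class was 0.09 against SHPCs and 0.17 against hepatocytes (0.01 and -0.02 after cyclic loess).

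Fibrinogen is built from 3 chains whose genes lie side by side in the order Fgg, Fga, Fgb. Fga read 12.23, 11.92 and 12.32 in SHPCs, 12.27, 12.42 and 12.66 in transplanted SHPCs and 11.92, 11.80 and 11.93 in hepatocytes. Fgb read 12.57, 12.29 and 12.52 in SHPCs, 12.63, 12.67 and 12.74 in transplanted SHPCs and 12.30, 12.25 and 12.31 in hepatocytes. Fgg read 12.63, 12.22 and 12.56 in SHPCs, 12.54, 12.66 and 12.81 in transplanted SHPCs and 12.17, 12.12 and 12.35 in hepatocytes. For all 3 chains the transplanted arrays were above every hepatocyte array, and only for Fgb were they above every SHPC array.

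The 3 chains had like values: 0.57 ± 0.16 SE, 0.40 ± 0.12 SE and 0.46 ± 0.15 SE for Fga, Fgb and Fgg against hepatocytes, or 1.48-, 1.32- and 1.37-fold, with limma adjusted p of 0.164, 0.244 and 0.279. SHPCs without a transplant lay between, at 0.28 ± 0.16 SE, 0.18 ± 0.12 SE and 0.26 ± 0.15 SE from hepatocytes (each limma adjusted p = 1), with overlap on the narrow SHPC array. Against hepatocytes the chains stayed higher after cyclic loess (0.37, 0.20 and 0.26), but with overlapping arrays. Against SHPCs the transplanted group differed by 0.29 ± 0.16 SE, 0.22 ± 0.12 SE and 0.20 ± 0.15 SE, and by 0.04, -0.02 and -0.04 after cyclic loess.

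Among the genes of fibrinolysis and clot control, plasminogen (Plg), the zymogen of plasmin, differed by 0.21 ± 0.14 SE from SHPCs and 0.20 ± 0.14 SE from hepatocytes, with overlap. Cpb2, a carboxypeptidase that protects fibrin from plasmin, read 11.20, 10.50 and 11.04 in SHPCs, 11.22, 11.27 and 11.35 in transplanted SHPCs and 10.86, 10.54 and 10.79 in hepatocytes. It was apart above both, by 0.36 ± 0.19 SE and 0.55 ± 0.19 SE (limma adjusted p = 0.705 and 0.304), and by 0.15 and 0.45 without the narrow arrays. Histidine-rich glycoprotein (Hrg), a plasma adaptor that binds plasminogen and heparin, and the clotting inhibitor Tfpi read much lower on the narrow arrays. Hrg read 10.04 and 9.81 on those arrays and 11.22 to 11.63 on the 7 others. Tfpi read 4.85 and 4.36 on the narrow arrays and 5.43 to 6.36 on the others. Their differences from SHPCs, 0.62 ± 0.44 SE and 0.66 ± 0.38 SE (limma adjusted p = 0.721 and 0.705), were 0.16 and 0.31 without those arrays. From hepatocytes Hrg and Tfpi differed by 0.83 ± 0.44 SE and 0.97 ± 0.38 SE (limma adjusted p = 0.573 and 0.413), or 0.35 and 0.54 without those arrays. After cyclic loess they were at 0.37 and 0.65 against SHPCs and 0.62 and 0.96 against hepatocytes. Both genes were apart above both groups as deposited and after cyclic loess. Vitronectin (Vtn), which binds the terminal complement complex and stabilises the plasminogen activator inhibitor, differed by 0.26 ± 0.19 SE from SHPCs and 0.39 ± 0.19 SE from hepatocytes. For Vtn these were 0.08 and 0.26 without the narrow arrays and 0.01 and 0.19 after cyclic loess.

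**Figure D4:**
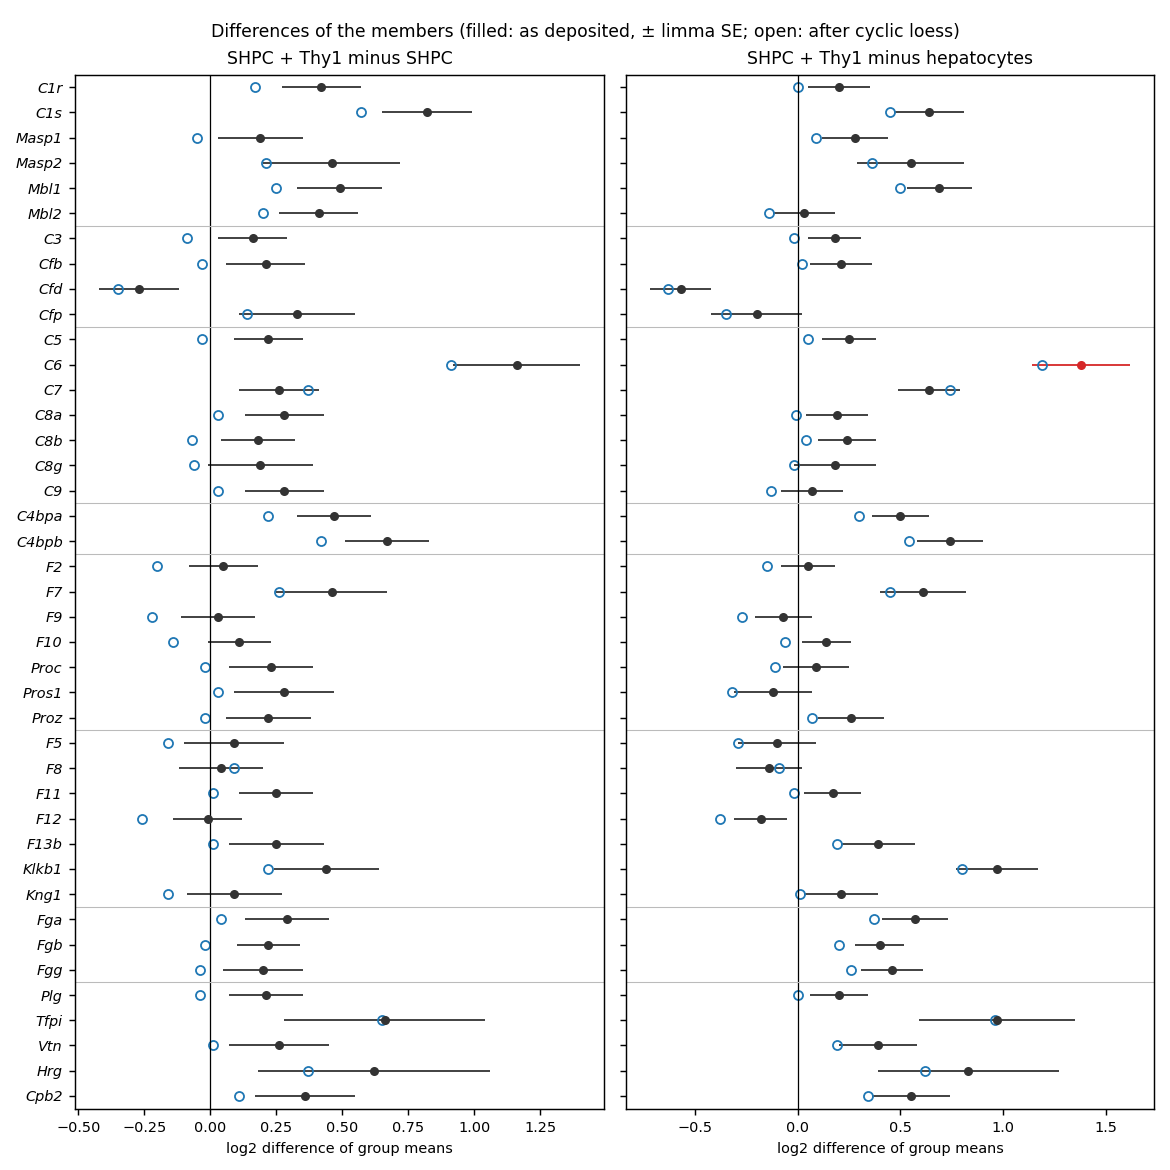
Log2 differences of group means for the 41 members by role, against SHPCs (left) and against hepatocytes (right); filled points with bars are the deposited values ± limma SE, open circles the values after cyclic loess, and red marks a limma adjusted p under 0.05. Cyclic loess draws most members toward 0, while C6 keeps 0.91 and 1.19, C1s 0.57 and 0.45, C4bpb 0.42 and 0.54, and Cfd stays below 0 in both panels.

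Other genes of the same pathways, 57 listed and 45 tested, gave 36 of 45 higher in transplanted SHPCs than in SHPCs, with a median of 0.20 and 0 called by limma (7 higher and 2 lower at an unadjusted p under 0.05). Of all genes 53% were higher, and of bright genes 83.5%; after cyclic loess the list gave 27 of 45 higher, with a median of 0.13. Against hepatocytes 28 of 45 were higher (49.7% of all genes, 74.1% of bright genes), with a median of 0.13 (27 of 45 and 0.08 after cyclic loess), and 2 were called, both higher. The first was A2m, the broad protease trap alpha-2-macroglobulin, an acute phase protein of the rat. A2m read 6.56, 6.63 and 6.66 in SHPCs, 6.20, 6.92 and 7.43 in transplanted SHPCs and 3.96, 5.28 and 4.50 in hepatocytes. Both SHPC groups were above all hepatocyte arrays, by 2.03 ± 0.35 SE without a transplant (4.09-fold, limma adjusted p = 0.114) and 2.27 ± 0.35 SE with it (4.81-fold, limma adjusted p = 0.0206), and they overlapped each other. The other called gene was Serpinf2, the plasmin inhibitor alpha-2-antiplasmin. Serpinf2 read 10.04, 9.09 and 9.64 in SHPCs, 10.20, 10.38 and 10.38 in transplanted SHPCs and 9.19, 8.89 and 9.07 in hepatocytes, so the transplanted arrays were above all others. It was 1.27 ± 0.22 SE higher in transplanted SHPCs than in hepatocytes (2.41-fold, limma adjusted p = 0.0264) and differed by 0.73 ± 0.22 SE from SHPCs (limma adjusted p = 0.46). Both calls held after cyclic loess (A2m 2.23, limma adjusted p = 0.00866; Serpinf2 1.07, limma adjusted p = 0.00255). The Serpinf2 call was lost without any of the 6 arrays compared (limma adjusted p 0.0735 to 0.142). The A2m call was lost without transplanted array 2 or 3 (0.0992 and 0.103) or hepatocyte array 1 or 3 (0.0684 and 0.0861). Of 12 tested regulators of hepatic and acute phase genes, none was called. Onecut1, a hepatocyte transcription factor, had the smallest p, at -1.23 ± 0.26 SE in transplanted SHPCs against SHPCs (limma adjusted p = 0.224), with every transplanted array (6.33, 6.81 and 7.30) below all SHPC arrays (7.94, 7.84 and 8.36). After cyclic loess it was at -1.43 and passed (limma adjusted p = 0.0346).

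Markers of some other liver cells were higher in transplanted SHPCs than in SHPCs. The summed intensity of 12 Kupffer cell and macrophage markers was 1620 to 2710 in SHPCs, 3130 to 3750 in transplanted SHPCs and 2260 to 3070 in hepatocytes, with the transplanted arrays above all others. For 6 of 10 listed sinusoidal endothelial markers the sums were 537 to 768, 787 to 901 and 611 to 883, and for 10 of 11 stellate cell and fibroblast markers 603 to 903, 910 to 1110 and 689 to 1040. In transplanted SHPCs the endothelial and stellate cell sums were above those of SHPCs and overlapped those of hepatocytes. Against SHPCs, 6 of 6 endothelial markers were higher, with a median of 0.18. It was 0.13 with 4 of 6 higher without the narrow arrays, and 0.11 with 5 of 6 higher after cyclic loess. Of 9 tested stellate cell markers 8 were higher, with a median of 0.24 (0.14 without the narrow arrays, 0.20 after cyclic loess). All genes with a mean log2 intensity between 4 and 6 had a median of -0.03, and those between 6 and 8 of 0.17. All 12 macrophage markers, all 6 endothelial markers and 9 of the 10 stellate cell markers were above the 25th percentile on all 9 arrays. Against SHPCs, 12 of 12 macrophage markers were higher, with a median of 0.59 (0.24 without the narrow arrays, 0.38 with 11 of 12 higher after cyclic loess). Against hepatocytes 11 of 12 were higher, with a median of 0.28 (7 of 12 and 0.08 without the narrow arrays), and 1 was called, the scavenger receptor Marco (0.80 ± 0.16 SE, limma adjusted p = 0.0456; 0.61 and 0.198 after cyclic loess). Of all genes 0.861% were called higher there. The Marco call was lost when any single array other than SHPC array 2 was left out (limma adjusted p 0.0613 to 0.203). It held without both narrow arrays (0.79, limma adjusted p = 0.0473). Sums of 6 cholangiocyte markers were 136 to 146, 147 to 171 and 116 to 134 in SHPCs, transplanted SHPCs and hepatocytes, without overlap. The 6 markers did not move as a set: against SHPCs, 3 were higher and 3 lower in transplanted SHPCs. Their median was 0.03 (4 of 6 higher and 0.14 after cyclic loess), with Epcam at 0.74 and Krt7 at -0.35. Sums of 7 neutrophil markers (131 to 155, 125 to 135, 133 to 159) and 5 of 8 platelet markers (125 to 160, 134 to 147, 147 to 154) overlapped between the SHPC groups. C1qa, C1qb and C1qc are the macrophage-made chains that begin the classical pathway with C1r and C1s. C1qb and C1qc differed from SHPCs by 0.56 ± 0.32 SE and 0.56 ± 0.29 SE (limma adjusted p = 0.705 each), and by 0.16 and 0.20 without the narrow arrays. C1qa differed by 0.13 ± 0.13 SE (limma adjusted p = 0.779; -0.10 after cyclic loess) and was apart below hepatocytes, at -0.23 ± 0.13 SE (limma adjusted p = 0.606). Macrophages and stromal cells also make several complement components, and the part of these cells in the values of C6, C1s, C1r, C7 and the other members was not tested.

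Promoter sequence was compared among the 32 members that the RefSeq table for GRCr8 held, beside its 33469 promoters of 300 bases. Exact matches were sought on both strands to HNF1 letters (GTTAATNAT), HNF4 letters (CAAAGTCCA), C/EBP letters (TTGCNNAA) and STAT letters (TTCNNNGAA), and no match to a motif overlapped a match to another in these members. HNF1 letters were held by 5 members (15.6%, against 0.747% of all promoters), C/EBP letters by 12 (37.5% against 10.6%), STAT letters by 7 (21.9% against 8.87%) and HNF4 letters by 1 (3.12% against 0.391%). A match describes letters and not a binding site. The 5 HNF1 matches are shown with 20 bases on each side, in the gene's direction and with the match in capitals, because they lie close together relative to the start, between 76 and 33 bases before it, whereas 39% of all 254 HNF1 matches lie within the last 100 bases. They come from C5 (chr3:38759473-38759521, minus), C4bpa (chr13:44663519-44663567, minus), F13b (chr13:53681557-53681605, plus), Fga (chr2:170672094-170672142, plus) and Plg (chr1:50915448-50915496, minus).
C5: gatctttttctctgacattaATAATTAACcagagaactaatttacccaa
C4bpa: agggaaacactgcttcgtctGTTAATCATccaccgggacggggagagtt
F13b: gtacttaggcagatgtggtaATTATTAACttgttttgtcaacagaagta
Fga: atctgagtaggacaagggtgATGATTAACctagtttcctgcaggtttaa
Plg: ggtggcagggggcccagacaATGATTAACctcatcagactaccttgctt

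These 5 genes share the letters and not the size of their difference between transplanted SHPCs and hepatocytes, which ran from 0.20 ± 0.14 SE for Plg and 0.25 ± 0.13 SE for C5 to 0.57 ± 0.16 SE for Fga. C/EBP letters likewise occur in C6, Klkb1 and C1r and in F9, whose values differ: 1.38, 0.97 and 0.20 against -0.07 in that comparison.

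Position in the genome was shared as well. Of the members, 12 form 7 pairs of adjacent protein-coding genes in the RefSeq annotation. Within the pairs the differences against SHPCs were close for Fgg and Fga (0.20 and 0.29), Fga and Fgb (0.29 and 0.22), Proz and F10 (0.22 and 0.11), and C8b and C8a (0.18 and 0.28). They were 0.44 and 0.25 for Klkb1 and F11, and further from each other for F10 and F7 (0.11 and 0.46) and C1r and C1s (0.42 and 0.82). Against hepatocytes, Klkb1 and F11 were at 0.97 and 0.17, F10 and F7 at 0.14 and 0.61, and C1r and C1s at 0.20 and 0.64.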

How the data were processed

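The deposited table holds the authors' intensity on a linear scale for 36685 probe sets on each of 9 arrays, made with RMA (background correction, normalization between arrays and probe summary) per the submitters' processing notes; its version is not stated there. Values were taken to log2. Gene symbols came from the platform annotation (18511 probe sets with 1 symbol, 575 with several, left out), and each gene was represented by its brightest probe set. Genes above the array's 25th percentile on at least 3 arrays (15793) entered 1 fit of 3 group means with limma 3.58.1 in R 4.3.3 (6 residual degrees of freedom). The fit was tested on simulated data whose noise was independent between arrays, so that test does not cover array-wide effects such as those of the narrow pair. The number of arrays limits the precision. Arrays numbered alike deviated together in SHPCs and hepatocytes (correlations of deviations 0.526, 0.705 and 0.341, all over 0.1), so that comparison is also given with the number as a block. The labels do not say that the numbers pair samples, and unlike numbers also deviated together (SHPC array 3 with hepatocyte array 1, 0.48; SHPC array 1 with hepatocyte array 3, 0.237). The second arrays of both groups are the narrow pair, and deviations from a mean of 3 arrays must cancel. These correlations therefore cannot show whether the numbers pair samples. Values on every array are given for called members, the 6 with the smallest p in each comparison, the fibrinogen chains and C3; other members with values on every array (C5, F2, F7, Cpb2) and Ggcx were chosen after their values were seen, as were the splits by mean level and the alternatives for members apart. The members and gene lists were chosen with earlier results of these data known. Alternatives were leaving out each array or both narrow arrays, the block, median centring, cyclic loess, no dim filter, array weights, the mean of a gene's probe sets, and fits of 2 groups.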

Additional observations from a re-analysis of the deposited data

How the results depend on the processing

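Calls and directions both depended on the setting. Over all 41 members, cyclic loess turned the direction of 16 against SHPCs, 9 in transplanted SHPCs against hepatocytes and 3 in SHPCs against hepatocytes, and leaving out both narrow arrays turned 2, 2 and 3. Of 510 differences of the members chosen by the rule (the smallest p-values, fibrinogen and C3), recomputed under 17 settings, 473 kept their direction and their side of the threshold, 23 newly passed, 7 no longer passed and 7 turned. The cause of these changes was not tested. No dim filter and the mean of a gene's probe sets moved no count of calls by over 1.5 times and no described member across the threshold.

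Between SHPCs and hepatocytes, members called stayed at 0 in every setting run, while genes called (10) became 35 with the replicate block, 61 without both narrow arrays, 0 after median centring, 34 after cyclic loess, 375 with array weights and 0 with only the 2 groups fitted, and 0 to 53 when 1 array was left out. C3 lay between -0.02 and 0.10 when 1 array was left out. Members apart above became 14 without both narrow arrays (34.1%, beside 15.3% of all genes, since 2 arrays against 2 separate more often) and 0 after median centring (3.05% of all genes), and those below became 2 after median centring and 2 after cyclic loess (2.73% and 4.63% of all genes).

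Between transplanted SHPCs and SHPCs, members called were 1 with the replicate block (C6), 1 after cyclic loess and 3 with array weights (C6, C1s and C4bpb). Genes called (1) became 64 with the block, 23 without both narrow arrays, 0 after median centring, 40 after cyclic loess, 259 with array weights, 0 with only the 2 groups, and 0 to 24 without 1 array. After cyclic loess the members' median was 0.01, 9 members were apart above and 1 below (12.7% and 7.17% of all genes; also 1 below without both narrow arrays, beside 11.5%), and Fgb, Fgg and C3 were at -0.02, -0.04 and -0.09.

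Between transplanted SHPCs and hepatocytes, members called were 2 with the replicate block (C6 and Mbl1), 3 without both narrow arrays, 0 after median centring, 2 after cyclic loess, 18 with array weights, 3 with only the 2 groups, and 0 to 4 without 1 array. Genes called (186) became 367, 576, 47, 439, 2685 and 303 in that order, and 31 to 472 without 1 array. After cyclic loess the members' median was 0.04, C3 was at -0.02, and 12 members were apart above and 4 below (15% and 9.03% of all genes), against 3 below without both narrow arrays (12.6%). Arrays numbered alike did not deviate together in the comparisons with the transplanted group (correlations -0.0936 to 0.00234), so these correlations give no ground for a block there. Median centring moved the median of all genes to 0.12 against SHPCs and 0.092 against hepatocytes, so differences after it are relative to those shifts, and it made 11052 and 10396 genes higher in place of 8366 and 7857.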
